A study of Mus musculus with 2 samples.

Results

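Single-cell RNA profiles of prostate lesions were examined for 3 of 19320 measured features: the human androgen receptor transgene hARtg, the membrane-bound green fluorescent protein reporter mGFP, and Osr1, the gene whose promoter drove the recombinase that switched both on. They were taken by feature name (ARQ for hARtg, EGFP for mGFP, and Osr1). The deposited table does not explain the names ARQ and EGFP, which were matched to hARtg and mGFP because the methods of the study added these sequences to the mouse genome before counting.

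The tissue came from R26 mTmG/hAR : Osr1 Cre/+ mice of a mixed C57BL/6 and 129S1/SvImJ background. One library was made from prostatic intraepithelial neoplasia (PIN) of 6-month-old mice and 1 from prostatic adenocarcinoma (PCa) of 12-month-old mice. Both groups carried the floxed hAR transgene on one Rosa26 allele, the mTmG reporter on the other and the Osr1-Cre driver, so neither lacked a transgene, and how many animals were pooled is not given in the sources used here. Tissue was dissociated with collagenase and TrypLE, and libraries were made with the Chromium Single Cell 3' v2 chemistry.

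Cre recombinase cuts out DNA between loxP sites. In the mTmG reporter this replaces membrane-bound tdTomato with mGFP, and in the hAR allele it removes a stop cassette so that the human androgen receptor is made. The change is permanent and passes to all daughter cells, so mGFP marks cells that descend from Osr1-expressing ancestors, whether or not they still express Osr1. Osr1 encodes an odd-skipped zinc finger factor that is best known from the intermediate mesoderm and the early urogenital tract. Cre was driven by the Osr1 promoter and not by a prostate-specific one, so recombination could begin before the prostate formed and in more than one lineage.

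In the mm10 mouse genome (positions from RefSeq, GRCm38.p6), Osr1 lies at chr12:9574442-9581500. The Rosa26 locus, Gt(ROSA)26Sor, lies at chr6:113067428-113077244 between Thumpd3 (chr6:113046302-113068278) and Setd5 (chr6:113077262-113153432), and Thumpd3 overlaps it at one end. The transgene and reporter sequences themselves were not used here.

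The 15742 deposited cell barcodes end in 1 or 2 and are called set 1 and set 2 below. No label ties an ending to a tissue, so the sets are not named PIN or PCa, and with 1 library a tissue no test between tissues was possible. Set 1 held 6332 cells with a median of 17235 UMIs (unique molecular identifiers, tags that each mark 1 captured RNA molecule), and set 2 held 9410 cells with a median of 14824.5 UMIs. After 150 and 183 called doublets were left out, 15409 cells remained, of which 67 barcode sequences occurred in both sets before that step. Cells were placed in 6 classes by fixed markers, and 523 cells (3.39%) stayed ungated. Luminal-like cells numbered 3227 in set 1 and 8082 in set 2, and basal-like cells 1364 and 185. Leukocyte-like cells numbered 1060 and 249, fibroblast-like cells 152 and 318, endothelium-like cells 42 and 164, and smooth muscle or mural-like cells 14 and 29.

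The gate used these markers, so their levels are a description. The unit CPM is the number of UMIs of one feature per 1000000 UMIs of a class. The basal keratin Krt5 stood at 1638 CPM for the basal-like class of set 1 and 789 CPM for that of set 2, and at 30.7 and 7.51 CPM for the luminal-like class. The pan-leukocyte gene Ptprc stood at 545 and 259 CPM in leukocyte-like cells and at 1.49 and 0.28 CPM in luminal-like cells, while the luminal keratin Krt8 was found in 49.2% and 77.5% of leukocyte-like cells, at 134 and 271 CPM. A total of 443 cells (2.87%) lay near the limit between classes, with a score 1.1 to 1.3 times that of the next class, and 209 of these were closest to the basal and 173 to the luminal class. Every interval below is a 95% interval and covers counting error only.

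hARtg and mGFP were highest in the epithelial classes and differed between the sets by class. In set 1 the basal-like class held hARtg at 271 CPM (263 to 278, exact Poisson) and the luminal-like class at 168 CPM (166 to 171). In set 2 the order was turned, with 1497 CPM (1491 to 1502) for the luminal-like class and 469.7 CPM (435 to 506) for the basal-like class. mGFP kept the same order as hARtg in each set. Basal-like cells of set 1 held it at 1894 CPM (1874 to 1914), and their luminal-like neighbours at 1035 CPM (1028 to 1041). In set 2 the luminal-like class reached 10028 CPM (10013 to 10043) of mGFP and the basal-like class 5020.1 CPM (4906 to 5136). In each of these 4 pairs the intervals of the classes did not overlap.

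The other classes held less of both transcripts. In set 1 hARtg stood at 42.8 CPM (22.8 to 73.2; 13 UMIs) for endothelial, 23.4 CPM (15.8 to 33.3; 30 UMIs) for fibroblast and 11.1 CPM (8.53 to 14.2; 63 UMIs) for leukocyte profiles. The interval of fibroblast-like cells overlapped that of endothelium-like cells but not that of leukocyte-like cells. In set 2 the values were 137 CPM (120.4 to 155), 112 CPM (96.3 to 129) and 61.8 CPM (50.9 to 74.4) in the same order. mGFP in set 1 came to 56.9 CPM (50.9 to 63.5) for leukocyte, 52.7 CPM (30.1 to 85.6) for endothelial and 29.6 CPM (20.9 to 40.6) for fibroblast profiles. In set 2 it came to 794 CPM (754 to 836) for endothelial, 779 CPM (737 to 823) for fibroblast and 360.5 CPM (333 to 389) for leukocyte profiles. The order of these 3 classes hung on the gate. When cells were classed by the number of detected markers, hARtg in set 2 came to 421 CPM for leukocyte, 379.97 CPM for fibroblast and 262 CPM for endothelial profiles, which turned the order round, and mGFP to 2853, 2161 and 1558 CPM. In set 1 that gate put hARtg at 25.5 CPM for leukocyte, 20.2 CPM for fibroblast and 46.6 CPM for endothelial profiles. Smooth muscle or mural-like cells held 2 and 10 UMIs of hARtg and 4 and 43 of mGFP in sets 1 and 2, too few to order.

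**Figure D1:**
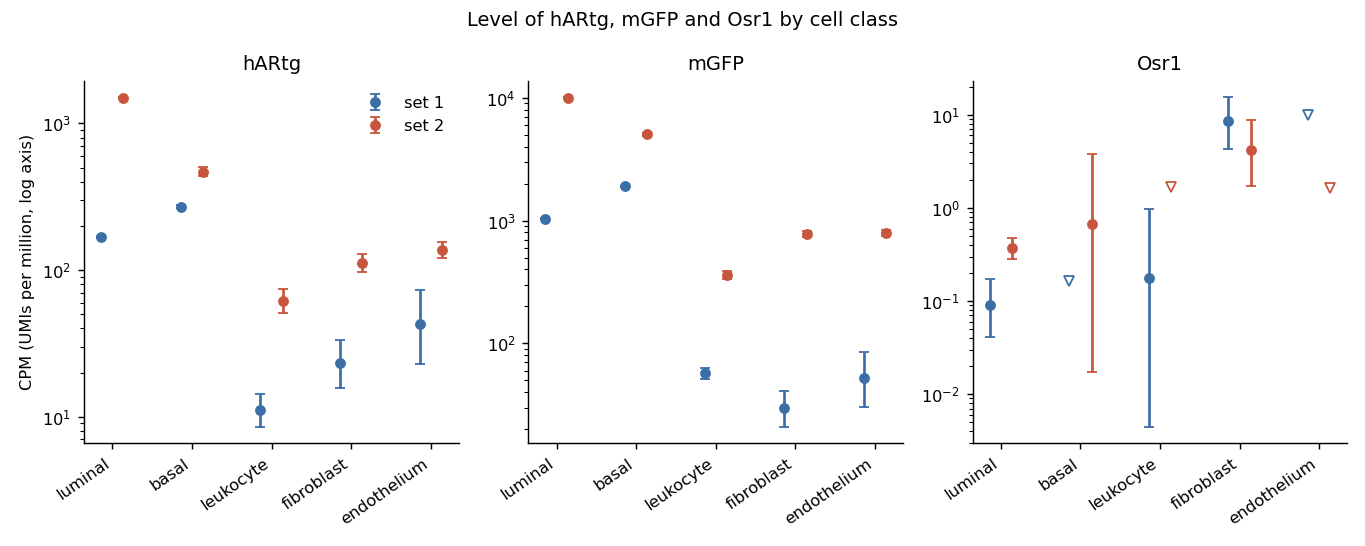
Level of hARtg, mGFP and Osr1 in 5 cell classes (CPM, log axis) for set 1 (blue) and set 2 (red); points are summed UMIs of a class, bars are exact Poisson 95% intervals, and open triangles mark the level that 3 UMIs would give where no UMI was counted. hARtg and mGFP peak in the basal-like class of set 1 (271 and 1894 CPM) and the luminal-like class of set 2 (1497 and 10028 CPM), whereas Osr1 is higher in fibroblast-like (8.56 and 4.23 CPM) than in luminal-like cells (0.090 and 0.37 CPM).

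Because cells differ in depth, each cell with at least 3000 UMIs was also thinned to 3000 UMIs, and leukocytes, which come from the bone marrow, were taken as the background of free RNA. Of luminal-like cells 21.0% (19.6 to 22.4%, Clopper-Pearson) in set 1 and 91.4% (90.8 to 92.0%) in set 2 then held an hARtg UMI, and 25.3% (23.8 to 26.8%) and 98.1% (97.8 to 98.4%) held an mGFP UMI. For basal-like cells the shares were 30.5% (28.0 to 33.0%) and 52.8% (45.2 to 60.3%) for hARtg, and 29.8% (27.4 to 32.3%) and 76.4% (69.5 to 82.4%) for mGFP. Leukocyte-like cells gave 2.62% (1.63 to 3.97%) and 18.4% (13.5 to 24.1%) for hARtg, and 11.1% (9.0 to 13.5%) and 60.1% (53.3 to 66.6%) for mGFP. The background share of mGFP differed between the sets, so each share is read against the leukocyte-like share of its own set. In both sets the mGFP intervals of luminal-like and basal-like cells lay above that of leukocyte-like cells. Thinning left out 26 and 101 luminal-like, 16 and 7 basal-like, and 257 and 26 leukocyte-like cells. Before thinning, 53.0% and 99.7% of luminal-like, 45.2% and 92.4% of basal-like, and 15.3% and 82.7% of leukocyte-like cells held an mGFP UMI, at median depths of 28052 and 16490, 11110 and 6438, and 3811 and 6779 UMIs. Fibroblast-like cells stood close to leukocyte-like cells in mGFP after thinning, at 12.1% (7.18 to 18.6%) and 62.1% (56.0 to 68.0%).

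mGFP per cell fell into a low and a high part rather than along one range. In luminal-like cells of set 1, 47.0% had no mGFP UMI, 1.08% had 2 to 4 mGFP UMIs per 10000 UMIs, 2.08% had 8 to 16, and 6.41% fell in the bin that starts at 64. In luminal-like cells of set 2, 0.56% had 4 to 8 per 10000, 0.59% had 8 to 16, and 59.3% fell in the bin that starts at 64. Basal-like cells of set 1 were likewise split, with 54.8% at 0, 1.1% at 4 to 8 and 10.48% in the bin from 64 per 10000. In basal-like cells of set 2 the low part was shifted up, with 13.5% at 4 to 8 and 25.9% in the bin from 64, and the least filled bin of this middle range, at 16 to 32, held 2.70%. From these distributions, and so after they were seen, cells with at least 8 mGFP UMIs per 10000 and at least 5 in all were called mGFP-high. Cells with at least 2 hARtg UMIs per 10000 and at least 3 in all were called hARtg-high, also after the values were seen. Only in luminal-like cells of set 1 did the bin just below this limit hold fewer cells than both bins beside it. In basal-like cells of set 1, 6.16% had 1 to 2 hARtg UMIs per 10000 and 6.74% had 2 to 4. These shares were 7.57% and 16.8% in basal-like and 1.53% and 3.45% in luminal-like cells of set 2. In these 3 groups the limit did not fall in a gap, so hARtg-high is a working cut. mGFP-high cells made up 18.2% (16.9 to 19.6%) of luminal-like and 22.4% (20.2 to 24.7%) of basal-like cells of set 1, and 96.3% (95.9 to 96.7%) and 50.3% (42.8 to 57.7%) in set 2. Among leukocyte-like cells they were 3 of 1060 in set 1 and 10 of 249 in set 2.

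**Figure D2:**
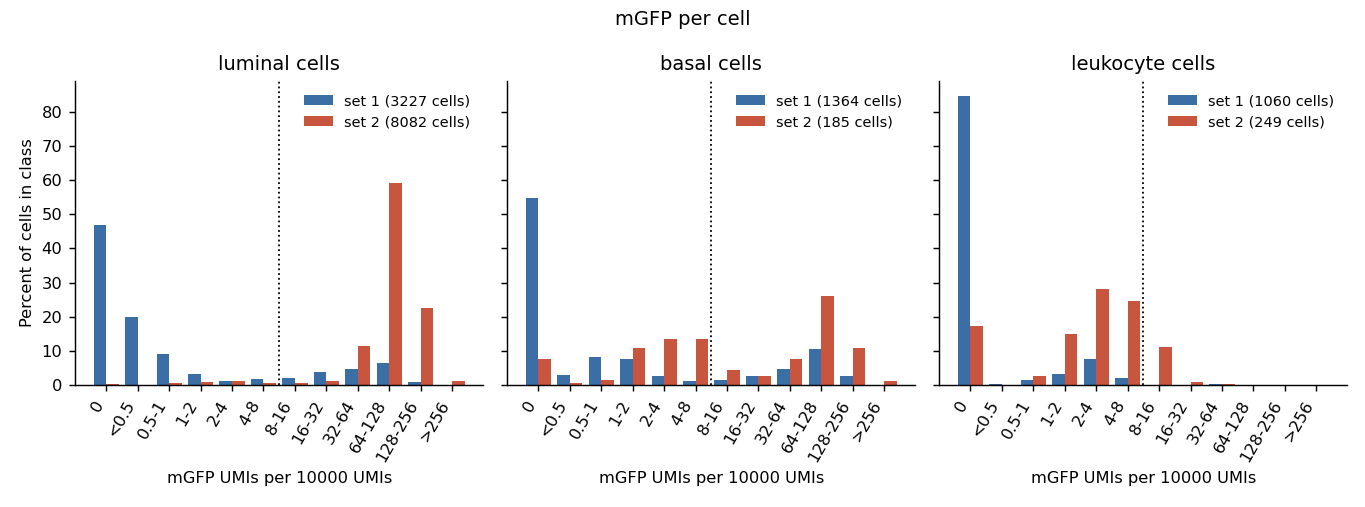
Percent of luminal-like, basal-like and leukocyte-like cells (y axis) by mGFP UMIs per 10000 UMIs of the cell (x axis, bins that double in width), with set 1 in blue and set 2 in red; the dotted line marks 8 per 10000. Luminal-like and basal-like cells form a low and a high part, and leukocyte-like cells of set 1 mostly sit at 0 while those of set 2 mostly sit between 1 and 16.

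Within the high part the level varied from cell to cell. mGFP-high luminal-like cells of set 1 had a median of 52.0 mGFP UMIs per 10000 (quartiles 25.6 and 82.8), and those of set 2 had 99.5 (76.8 to 127). For hARtg the medians were 6.13 (3.30 to 10.1) and 14.2 (9.25 to 20.5) per 10000. mGFP-high basal-like cells had medians of 75.5 and 93.6 per 10000 for mGFP and 6.75 and 4.55 for hARtg in sets 1 and 2. The spread was wider for hARtg than for mGFP in each of these groups, with a coefficient of variation over cells of 0.80 against 0.64 in luminal-like cells of set 1, 0.62 against 0.44 in those of set 2, 0.68 against 0.61 in basal-like cells of set 1 and 1.02 against 0.54 in those of set 2. The lower UMI counts of hARtg add counting noise to its spread. The cells were also chosen by mGFP, which cuts off low mGFP values but not low hARtg values. In luminal-like cells of set 1 the 5th percentile was 11.7 per 10000 for mGFP and 0.26 for hARtg. The difference in spread is therefore a description. Across cells of the high part, the Spearman correlation of hARtg with mGFP per 10000 was 0.15 in luminal-like (587 cells) and 0.13 in basal-like cells (305) of set 1, and 0.38 (7783) and 0.33 (93) in set 2, all with depth shared between the values. Over all cells of these classes it was 0.55, 0.58, 0.43 and 0.33 in the same order. In set 1 the correlation was thus lower within the high part than over all cells. Choosing the high part by mGFP narrows the range of mGFP, which by itself can lower the correlation, so this drop is a description.

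In both epithelial classes the sets differed more in the share of mGFP-high cells than in the transcript level within them. hARtg was 8.90-fold (8.76 to 9.04) and mGFP 9.69-fold (9.63 to 9.75) higher in luminal-like cells of set 2 than of set 1, where 4.05% of 7933 features were at least 4-fold higher. In mGFP-high luminal-like cells alone the ratios were 2.20-fold (2.16 to 2.24) for hARtg and 1.95-fold (1.94 to 1.96) for mGFP, against 4.32% of features at least 4-fold higher, and neither reached that size. In basal-like cells hARtg was 1.74-fold (1.60 to 1.88) and mGFP 2.65-fold (2.58 to 2.72) higher in set 2, with 1.8% of features at least 4-fold higher. In mGFP-high basal-like cells hARtg was lower in set 2, at 552 against 721 CPM or 0.77-fold (0.69 to 0.84), while mGFP was 1.23-fold (1.2 to 1.26) higher, with 2.63% of features past 4-fold. These ratios pointed in opposite directions, but neither was unusual among all features. Of 7195 features 79.1% had a ratio at or above that of hARtg, and 36.4% had one at or above that of mGFP. The cells were chosen by mGFP, and set 2 held 93 of them. In basal-like cells the ratio between sets hung on the gate, and with a margin of 1.5 over the next class the log2 ratio of hARtg fell from 0.80 to 0.52.

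mGFP was also higher in set 2 in the low part and in leukocyte-like cells. mGFP-low luminal-like cells of set 2 held 5.01-fold (4.67 to 5.38) the mGFP level of those of set 1 (200 against 39.9 CPM), where 1.43% of features were at least 4-fold higher. mGFP-low basal-like cells held 6.59-fold (5.5 to 7.85; 264 against 40.04 CPM), with 1.4% of features past 4-fold. Leukocyte-like cells held 6.33-fold (5.53 to 7.26) of mGFP and 5.57-fold (4.05 to 7.71) of hARtg, but there 7.08% of features were at least 4-fold higher. The cells of the low part were chosen by mGFP, so their mGFP level is a description.

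hARtg and mGFP were found in the same cells to a large degree, but not throughout. Among mGFP-high luminal-like cells 83.5% (80.2 to 86.4%; 490 of 587) in set 1 and 95.1% (94.6 to 95.6%; 7405 of 7783) in set 2 were hARtg-high. Among mGFP-low luminal-like cells 5.04% (4.23 to 5.94%) and 25.4% (20.6 to 30.8%) were hARtg-high. In basal-like cells the shares were 90.5% (86.6 to 93.5%; 276 of 305) against 10.9% (9.05 to 12.9%) in set 1 and 60.2% (49.5 to 70.2%; 56 of 93) against 30.4% (21.3 to 40.9%) in set 2. Without any high or low limit, after thinning to 3000 UMIs, 60.1% (56.6 to 63.5%) of luminal-like cells of set 1 with an mGFP UMI also held an hARtg UMI, against 7.78% (6.73 to 8.92%) of those with none. In set 2 these shares were 92.7% (92.1 to 93.2%) and 24.7% (18.0 to 32.4%). For basal-like cells they were 69.2% (64.4 to 73.6%) and 14.1% (11.9 to 16.4%) in set 1, and 58.1% (49.3 to 66.5%) and 35.7% (21.6 to 52.0%) in set 2, where the intervals overlapped.

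The level of hARtg followed the same split. In luminal-like cells it was 15.6-fold (14.99 to 16.1) higher in mGFP-high than in mGFP-low cells of set 1 (698 against 44.9 CPM), where 1.17% of 7549 features were at least 4-fold higher. In set 2 it was 5.0-fold (4.76 to 5.26) higher (1534 against 307 CPM), with 4.48% of features past 4-fold. In basal-like cells of set 1 it was 6.78-fold (6.37 to 7.22) higher (721 against 106 CPM), where 0.337% of 6816 features were at least 4-fold higher and 10 had a larger ratio than hARtg. In basal-like cells of set 2 it was 1.53-fold (1.31 to 1.80) higher (552 against 360 CPM) and did not reach 4-fold, as 1.85% of features did. The transgene thus separated marked from unmarked cells least in basal-like cells of set 2, which were the fewest (93 and 92 cells) and the shallowest (medians of 6752 and 5838 UMIs).

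**Figure D3:**
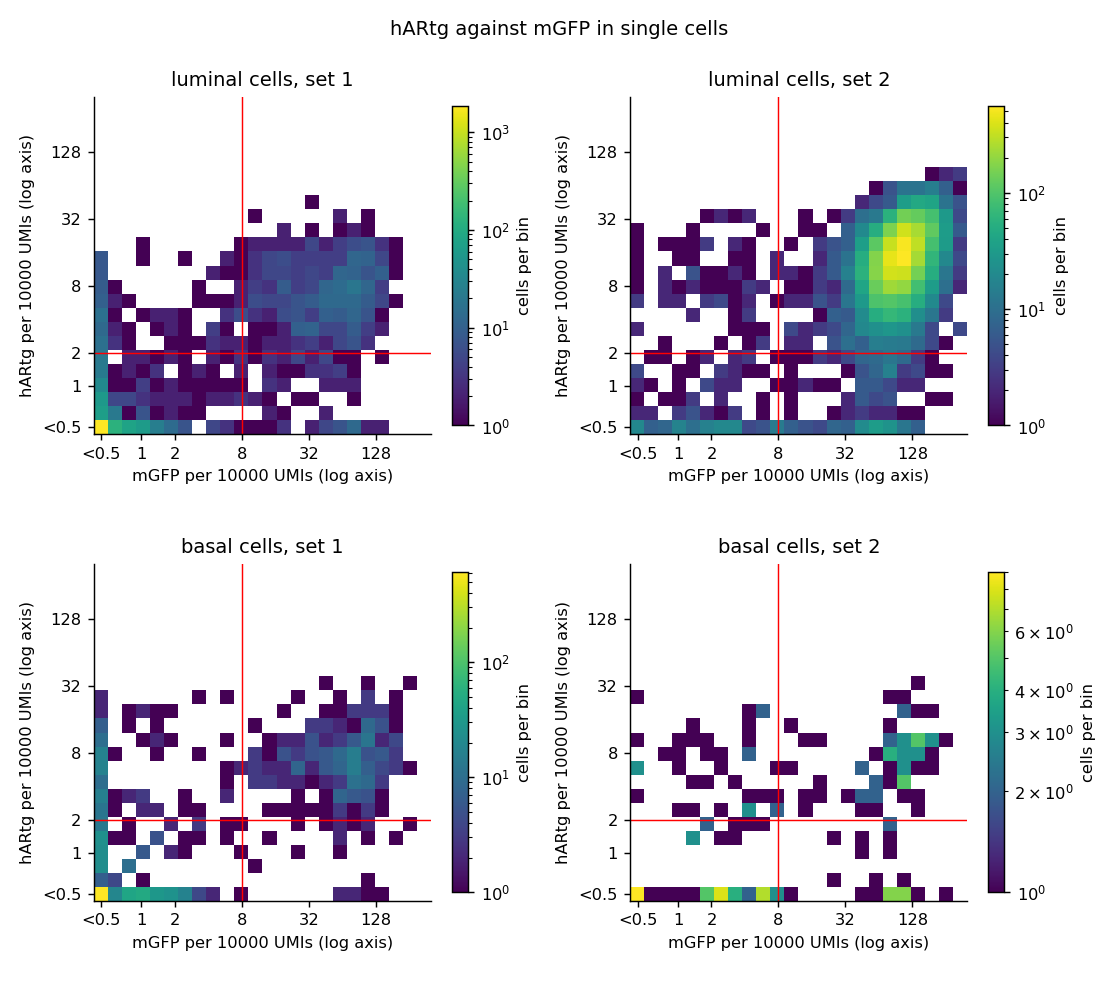
hARtg (y axis) against mGFP (x axis) in single luminal-like and basal-like cells, each in UMIs per 10000 UMIs on a log axis with values under 0.5 in the lowest bin; colour gives cells per bin on a log scale and red lines mark the limits of 8 (mGFP) and 2 (hARtg). Cells of set 1 form a group low in both and a group high in both. A column low in mGFP at their left edge runs on past the hARtg limit without a gap there. Luminal-like cells of set 2 form mainly the group high in both.

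Cells with the transgene high and the reporter low were seen in each epithelial group. Of hARtg-high cells of set 1, 21.3% (18.2 to 24.8%; 133 of 623) in the luminal-like and 29.4% (24.9 to 34.2%; 115 of 391) in the basal-like class were mGFP-low. In set 2 the shares were 1.02% (0.80 to 1.27%; 76 of 7481) and 33.3% (23.4 to 44.5%; 28 of 84). The shares were also taken in deeper cells. With cells of at least 10000 UMIs only, the shares were 20.9% (17.6 to 24.5%) and 27.7% (22.7 to 33.1%) in set 1, and 0.84% (0.62 to 1.11%) and 25.9% (11.1 to 46.3%) in set 2. Among such deep hARtg-high cells of set 1, 43 of 564 luminal-like and 57 of 300 basal-like cells had no mGFP UMI at all. hARtg stood at 533 CPM (512 to 556) in the hARtg-high, mGFP-low luminal-like cells of set 1, against 808 CPM (794 to 822) in cells high in both. The corresponding levels were 635 CPM (599 to 673) and 772 CPM (746 to 798) in basal-like cells. The hARtg-high, mGFP-low cells of set 1 had median UMIs of 27705 against 29612 in cells high in both for the luminal-like class. For the basal-like class the medians were 13065 against 14016. Their median doublet scores were 0.055 against 0.057 and 0.030 against 0.029, and those of cells low in both were 0.0425 and 0.0281. What gave rise to the hARtg-high, mGFP-low cells was not tested.

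The reverse, mGFP-high cells that were not hARtg-high, numbered 97 luminal-like and 29 basal-like cells in set 1 and 378 and 37 in set 2. In set 2 they were shallower than cells high in both (medians of 9124.5 and 16882 UMIs), and the share of mGFP-high luminal-like cells that were hARtg-high rose to 97.1% (96.6 to 97.5%) among cells of at least 10000 UMIs. In set 1 that share rose only to 85.0% (81.6 to 87.9%), and 20 of 525 such deep cells had no hARtg UMI. Within the luminal-like class these cells differed from those high in both in the androgen-dependent secretory gene Pbsn (probasin), which stood at 3683 against 565 CPM in set 1 and 2459 against 87.5 CPM in set 2. Cells low in both were higher still in set 2, at 7534 CPM, and stood at 3505 CPM in set 1.

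**Figure D4:**
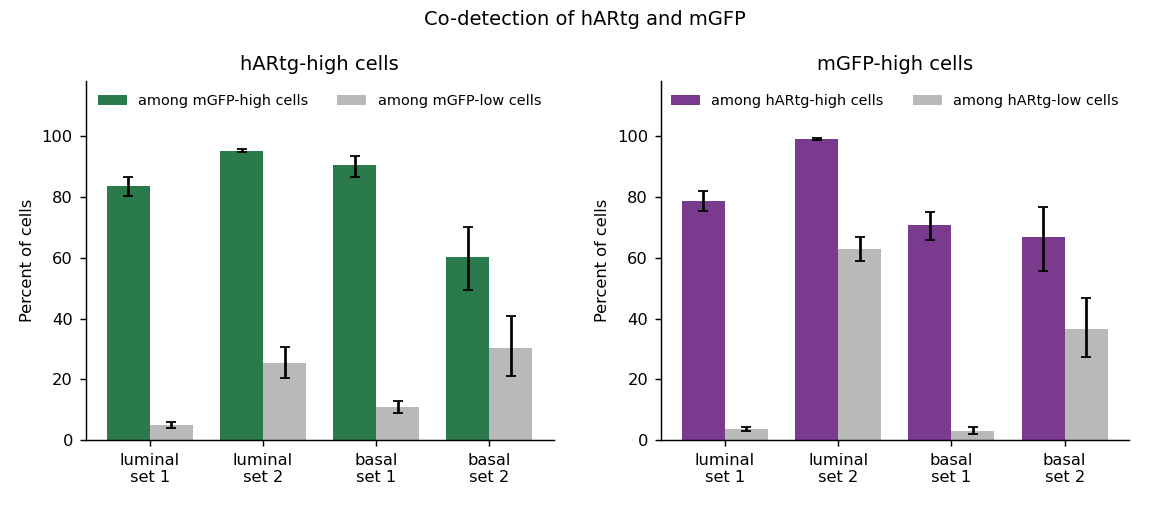
Percent of cells that were hARtg-high among mGFP-high and mGFP-low cells (left), and percent that were mGFP-high among hARtg-high and hARtg-low cells (right), by class and set, with exact Clopper-Pearson 95% intervals as bars. The pairs are far apart in set 1, for example 83.5% against 5.04% in luminal-like cells on the left, and close together in basal-like cells of set 2, at 60.2% against 30.4%.

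Both transgenes sit in the Rosa26 locus, and in luminal-like cells the transcript counted for Gt(ROSA)26Sor followed them. In luminal-like cells of set 1 Gt(ROSA)26Sor stood at 6.73 CPM (5.52 to 8.12; 108 UMIs) in cells high in both, 5.70 CPM (3.65 to 8.48; 24 UMIs) in cells with hARtg-high only, 3.1 CPM (1.42 to 5.89; 9 UMIs) in cells with mGFP-high only and 0.65 CPM (0.48 to 0.85; 50 UMIs) in cells low in both. In set 2 the values were 5.96 CPM (5.59 to 6.34), 4.21 CPM (1.37 to 9.84), 2.61 CPM (1.39 to 4.47) and 0.49 CPM (0.060 to 1.79), in the same order. In basal-like cells of set 1 cells high in both held 2.68 CPM (1.38 to 4.67) and cells low in both 0.52 CPM (0.19 to 1.13), from 12 and 6 UMIs. Cells with mGFP-high only held 7.76 CPM (1.60 to 22.7; 3 UMIs) and cells with hARtg-high only 3.79 CPM (1.52 to 7.81; 7 UMIs), so the luminal order was not shared. Basal-like cells of set 2 had 2 Gt(ROSA)26Sor UMIs in all, too few to order. In luminal-like cells the neighbouring genes did not share this order in set 1, and in set 2 Setd5 shared part of it. Thumpd3, which encodes a THUMP domain protein, stood in luminal-like cells of set 1 at 20.6 CPM in cells high in both and 26.1 CPM in cells low in both, and Setd5, a chromatin regulator, at 110.2 and 136.8 CPM. In set 2 Thumpd3 stood at 16.1 CPM in both kinds of cells. Setd5 stood there at 105 CPM (103 to 107) in cells high in both and 87.2 CPM (78.4 to 96.8) in cells low in both. These Setd5 intervals did not overlap, and the direction was that of Gt(ROSA)26Sor. The intervals of Gt(ROSA)26Sor for cells high in both and low in both did not overlap in either set for the luminal-like class.

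Leukocyte-like cells held hARtg and mGFP at a few percent of the luminal-like level. As a gauge of free epithelial RNA, 16 epithelial genes outside the gate were set beside them, of which 16 in set 1 and 14 in set 2 had at least 50 CPM in luminal-like cells. In set 1 leukocyte-like cells held 6.60% (5.07 to 8.45%) of the luminal-like hARtg level and 5.5% (4.92 to 6.14%) of the mGFP level, against a median of 2.34% for the 16 genes (1.33% to 16.2%). One of the 16, Perp, an epithelial junction gene, was above both. In set 2 the values were 4.13% (3.40 to 4.97%) for hARtg and 3.59% (3.32 to 3.88%) for mGFP, inside the range of the 14 genes (3.18% to 8.32%, median 4.50%). Since hARtg and mGFP were higher in basal-like than in luminal-like cells of set 1, the levels were also set against those of all cells of the set. They then came to 6.23% and 4.96% in set 1, where 1 and 2 of the 16 genes were above them, and to 4.30% and 3.73% in set 2.

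A few cells carried much of the leukocyte mGFP of set 1. The 3 mGFP-high leukocyte-like cells held 133 of 323 mGFP UMIs, had a median doublet score of 0.11 against 0.018 in the others, and held 92.6 CPM of Ptprc against 547. Without them mGFP came to 33.6 CPM (29.0 to 38.7) and 3.25% of the luminal-like level, and hARtg to 8.49 CPM (6.26 to 11.3) and 5.05%, against a median of 2.30% for the gauge genes. The leukocyte values depended on the gate. When cells were classed by the number of detected markers instead, leukocyte-like cells rose to 1114 and 284, with 770.4 and 2019.8 CPM of Krt8, and mGFP in them rose to 157 and 2853 CPM. The part of admixed epithelial cells in these values was not tested.

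Stromal cells above the mGFP-high limit were seen in set 2 and not in set 1. None of 152 fibroblast-like and none of 42 endothelium-like cells of set 1 was mGFP-high, where a count of 0 allows shares of up to 1.97% and 7.14% (3 counts of the total). In set 2, 26 of 318 fibroblast-like (8.18%, 5.41 to 11.8%) and 19 of 164 endothelium-like cells (11.6%, 7.12 to 17.5%) were mGFP-high, and they held 848 of 1289 and 1121 of 1463 of the mGFP UMIs of their classes. The same limit called 4.02% (1.94 to 7.26%) of leukocyte-like cells of set 2, an interval that overlapped both. Of the mGFP-high cells 17 fibroblast-like and 7 endothelium-like ones were not hARtg-high, and they held mGFP at 2015 and 2402 CPM. Epithelial transcripts were higher in the mGFP-high than in the other stromal cells. Krt8 stood at 2165 CPM in mGFP-high against 268 CPM in other fibroblast-like cells, and at 2301 against 174 CPM in endothelium-like cells, while Epcam, the epithelial adhesion gene, stood at 169 against 11.6 CPM and 157 against 24.1 CPM. Fibroblast and endothelial genes were a little lower in them, with 827 against 1336 CPM of Col1a1 and 741 against 987 CPM of Pecam1. In the remaining stromal cells of set 2 mGFP stood at 299.8 CPM (272 to 329) in fibroblast-like and 223 CPM (199.6 to 247) in endothelium-like cells, close to or below the 298 CPM (273 to 325) of leukocyte-like cells without mGFP-high cells. The parts of mixed droplets and of free RNA in the mGFP-high stromal cells were not tested.

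The ratio of the transcripts to each other set one group of cells apart. In leukocyte-like cells 5.13 (3.9 to 6.83) mGFP UMIs were counted per hARtg UMI in set 1 and 5.83 (4.76 to 7.19) in set 2, near the 6.15 (6.05 to 6.25) and 6.70 (6.67 to 6.73) of luminal-like cells. In fibroblast-like cells of set 1 the ratio was 1.27 (0.76 to 2.12) and in endothelium-like cells 1.23 (0.56 to 2.78), and neither interval reached that of leukocyte-like cells. In set 2 these classes had 6.97 (5.97 to 8.17) and 5.81 (5.08 to 6.66). The fibroblast hARtg UMIs of set 1 were spread over 21 of 152 cells, with at most 5.06 per 10000 in any cell. Both levels behind the ratio differed between fibroblast-like and leukocyte-like cells of set 1. mGFP was lower, at 29.6 against 56.9 CPM, and hARtg was higher, at 23.4 against 11.1 CPM.

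A ratio of that size was also found in epithelial cells that were low in both transcripts. In set 1 it was 1.65 (1.54 to 1.76) in luminal-like and 1.67 (1.42 to 1.96) in basal-like cells, 1.58 (0.93 to 2.76) in fibroblast-like and 1.5 (0.63 to 3.73) in endothelium-like cells, but 4.22 (3.04 to 5.98) in leukocyte-like cells. Of these intervals that of endothelium-like cells overlapped that of leukocyte-like cells. mGFP in cells low in both stood at 29.99 CPM (28.8 to 31.2) for luminal-like and 35.9 CPM (32.5 to 39.5) for basal-like cells. It stood at 29.95 CPM (21.2 to 41.1) in fibroblast-like, 33.6 CPM (29.0 to 38.8) in leukocyte-like and 50.5 CPM (28.2 to 83.2) in endothelium-like cells. Among these mGFP intervals only those of luminal-like and basal-like cells did not overlap. The cells were chosen by low levels of both transcripts, so the levels are a description. hARtg stood at 18.2 CPM (17.3 to 19.2) in luminal-like, 21.5 CPM (18.9 to 24.4) in basal-like and 18.9 CPM (12.1 to 28.1) in fibroblast-like cells. In leukocyte-like cells it stood at 7.97 CPM (5.81 to 10.7) and in endothelium-like cells at 33.6 CPM (16.1 to 61.9). In set 2 cells low in both had ratios of 4.07 (3.47 to 4.78) in luminal-like, 4.11 (2.68 to 6.51) in basal-like, 6.43 (4.96 to 8.45) in fibroblast-like and 5.80 (4.61 to 7.35) in leukocyte-like cells. hARtg stood there at 48.7 CPM (42.1 to 56.0) for luminal-like and 51.2 CPM (41.1 to 63.1) for leukocyte-like cells, and the intervals overlapped. A low hARtg level whose interval lay above that of leukocytes was therefore seen in 4 classes of set 1 and was not detectable against the background of set 2. The levels of cells low in both were not recomputed with classes gated on detected markers, so how they depend on the gate was not tested. Over all cells of a class in set 1, that gate put hARtg at 25.5 CPM in leukocyte-like and 20.2 CPM in fibroblast-like cells. The limits are stricter for shallow cells, since at least 3 hARtg UMIs were required, and leukocyte-like cells of set 1 were the shallowest.

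**Figure D5:**
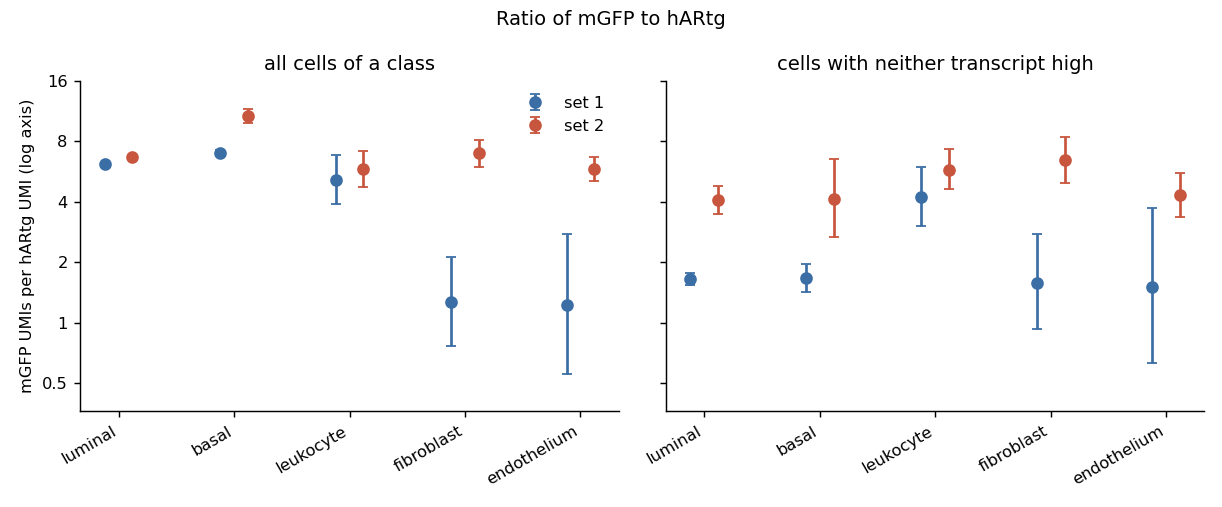
mGFP UMIs per hARtg UMI (y axis, log) in 5 cell classes, for all cells of a class (left) and for cells in which neither transcript was high (right), with set 1 in blue, set 2 in red and conditional binomial 95% intervals as bars. Among cells with neither transcript high, leukocyte-like cells of set 1 stand at 4.22 and luminal-like, basal-like, fibroblast-like and endothelium-like cells of set 1 between 1.5 and 1.67.

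Osr1 itself was rare. A total of 101 UMIs were counted in 93 of 15409 cells, 26 UMIs in 20 cells of set 1 and 75 UMIs in 73 cells of set 2. Fibroblast-like cells had the highest level counted, at 8.56 CPM (4.27 to 15.3; 11 UMIs in 9 of 152 cells) in set 1 and 4.23 CPM (1.70 to 8.71; 7 UMIs in 7 of 318 cells) in set 2. Luminal-like cells stood at 0.090 CPM (0.041 to 0.17; 9 UMIs in 7 cells) and 0.37 CPM (0.28 to 0.47; 64 UMIs in 62 cells), and neither interval reached that of fibroblast-like cells. Basal-like cells of set 1 had no Osr1 UMI in 1364 cells, where a count of 0 (taken as up to 3) allows a UMI in up to 0.22% of cells and a level of 0.165 CPM. This limits cells with a captured UMI, not cells that express the gene. Basal-like cells of set 2 had 1 UMI in 185 cells, or 0.68 CPM (0.017 to 3.78), whose interval overlapped that of fibroblast-like cells. Leukocyte-like cells had 1 UMI in set 1 and none in set 2, and endothelium-like and smooth muscle or mural-like cells had none. A count of 0 allows 9.88 and 1.63 CPM in endothelium-like and 24.4 and 14.9 CPM in smooth muscle or mural-like cells of sets 1 and 2, so most of these could not be placed below fibroblast-like cells. The 523 ungated cells held 5 UMIs in set 1 and 3 in set 2. After thinning to 3000 UMIs 0.16% (0.087 to 0.28%) of luminal-like cells of set 2 and 0 of 3201 of set 1 held an Osr1 UMI.

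How Osr1 transcripts and the reporter fell together differed by class, without a test of that difference. In fibroblast-like cells of set 1, 0 of the 9 cells with an Osr1 UMI were mGFP-high, and they held no mGFP UMI, although their median depth was 10479 UMIs. In set 2, 1 of the 7 such cells was mGFP-high, against 25 of 311 cells without Osr1. Among luminal-like cells of set 2 all 62 cells with an Osr1 UMI were mGFP-high (94.2 to 100%), but so were 96.3% (95.8 to 96.7%) of those without. Among luminal-like cells of set 1, 5 of 7 cells with an Osr1 UMI were mGFP-high (71.4%, 29.0 to 96.3%), against 18.1% (16.8 to 19.4%) of those without. These 7 cells were deep, with a median of 56807 against 28005 UMIs, and deeper cells are more likely to show a rare transcript. They held 36862 CPM of Psca, a gene for a cell surface protein, against 2359 CPM, and 10055 against 2870 CPM of Ly6a, whereas Itga6 stood at 180 against 201 CPM. These 3 genes are used as markers of epithelial progenitors, and sums over 7 cells can rest on 1 of them. Psca is also among the markers of proximal or urethral luminal cells in the score used below. Whether these 7 cells were of that kind was not tested. In the 62 cells of set 2 Psca stood at 348 against 140 CPM, Ly6a at 340 against 688 CPM and Itga6 at 169 against 189 CPM, so that only Psca was at least 1.5 times higher in both sets among the 3.

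Most other listed regulators of urogenital development had their highest counted level in fibroblast-like cells, though not all of them clearly. Of 13 listed genes 12 were measured. In set 1, 10 had a UMI in one of the 5 larger classes and 9 of them were highest in fibroblast-like cells, and in set 2 it was 9 of 12. Of the 7 with at least 10 CPM in a class, 7 in set 1 and 6 in set 2 were highest there, where 16.5% and 18.2% of all features with that level were. Tcf21, a mesenchymal factor, stood at 538 CPM (498 to 579) and 245 CPM (221 to 270) in fibroblast-like cells. Osr2, the close relative of Osr1, stood at 106 CPM (88.8 to 125) and 95.5 CPM (81.2 to 112). Wt1, a factor of the kidney and gonad, stood at 70.1 CPM (56.3 to 86.1) and 128.1 CPM (111 to 147). Foxf1, a mesenchymal and endothelial factor, was the exception in set 2, with 47.8 CPM in endothelium-like and 27.2 CPM in fibroblast-like cells. Hoxa13, a factor of the posterior body and urogenital tract, was counted as highest in fibroblast-like cells, but their 28.0 CPM (19.6 to 38.8) overlapped the 18.1 CPM (16.2 to 20.2) of basal-like cells in set 1. In set 2 their 19.9 CPM (13.7 to 28.0) overlapped the 18.9 CPM (18.3 to 19.6) of luminal-like cells. Foxf1 in set 1 overlapped as well, at 65.4 CPM (52.2 to 80.9) in fibroblast-like and 52.7 CPM (30.1 to 85.6) in endothelium-like cells. Hoxd13, a related factor, stood at 48.3 and 57.4 CPM in fibroblast-like and at 30.6 and 29.8 CPM in basal-like cells. The renal genes Pax2 and Pax8 were at or near 0, with at most 0.33 CPM in any of the 5 classes.

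By the fixed rule, the features most like each member were those with the highest Pearson correlation of log2(CPM + 10) over the 9 class-by-set groups of at least 50 cells, among 5899 features. hARtg and mGFP had a correlation of 0.97 with each other and of -0.37 and -0.51 with Osr1. Next to hARtg stood Mgst3, a microsomal glutathione transferase (0.97), Mapk13, a stress-activated kinase (0.95), Nhp2, a component of box H/ACA particles (0.94), and the zinc finger factor Sp8 (0.93). For mGFP they were Mgst3 (0.96), Mapk13 (0.92), Nhp2 (0.91) and Rps19bp1 (0.89). Mgst3 ranged from 2.64 CPM in leukocyte-like cells of set 1 to 158 CPM for the luminal-like class of set 2, and Mapk13 from 3.70 to 334 CPM over the same groups. The genes most like Osr1 were 6030408B16Rik, Gdf10, Dner, Ptgis and Col4a4 (0.988 to 0.997), each highest in fibroblast-like cells of set 1, from 62.3 CPM for Dner to 514 CPM for Ptgis, the prostacyclin synthase. The groups share libraries, and the levels of Osr1 rest on few UMIs.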

How the data were processed

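The authors counted UMIs with Cell Ranger 3.1.0 against mm10 with the hARtg and mGFP sequences added, removed empty droplets, multiplets and cells with many mitochondrial reads, and deposited natural log values, ln(1 + 10000 × UMIs / UMIs of the cell). Whole UMIs were recovered (100% of values within 0.001). All values are computed from those UMIs (Python 3.11.15, scipy 1.17.1, scanpy 1.11.5).

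Scrublet doublets (score above 0.25, since the automatic limit called 0) were left out. Each cell was assigned by its mean scaled marker score, which had to reach 0.15 and 1.2 times that of the next class. Intervals are exact Poisson for CPM, Clopper-Pearson for shares and conditional binomial for ratios. A count of 0 was set to 3 in ratios over all features, which needed at least 10 CPM in either group. Cells are not replicates and each tissue had 1 library, so no p-value is given. Only the ratios between sets with their intervals, and the thinning, were tested on simulated data, which were Poisson counts. The gate, the doublet calls, the high and low limits, co-detection, the leukocyte gauge and the likeness ranking were not tested in this way. Members, lists and alternatives were chosen with earlier results of these data known. The named genes were the 3 members, the fixed lists and the 5 features most like each member. Pbsn, Krt8, Epcam, Col1a1, Pecam1 and the doublet scores beside cell groups were added after values were seen. Some listed genes are not reported here.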

Additional observations from a re-analysis of the deposited data

How the results depend on the processing

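With 1 library per tissue and no label that ties barcode set to tissue, depth limits the low levels: Osr1, the fibroblast and endothelial hARtg of set 1 and the basal-like cells of set 2 rest on few UMIs or cells. No paired analysis was possible because each tissue had 1 library. The log2 ratios of set 2 over set 1 in luminal-like and basal-like cells kept their sign, and the other values rerun cannot be negative. The ratios within mGFP-high or mGFP-low cells were not rerun. Beside the main values, the log2 ratio of set 2 over set 1 in luminal-like cells was 3.06 (hARtg) and 3.15 (mGFP) with classes gated on detected markers, 3.18 and 3.30 with dominant and mitochondrial features left out, and for mGFP 3.26 with called doublets kept, 3.31 with a margin of 1.5 and 3.24 as a mean of per-cell CPM. In basal-like cells it was 0.53 and 0.97 with detected markers, 0.52 and 1.23 with a margin of 1.5 and 0.93 and 1.48 as a mean of per-cell CPM. The leukocyte-like mGFP level was 13.9% and 28.5% of the luminal-like level (sets 1 and 2) with detected markers. The share of cells with mGFP was 26.9% in luminal-like cells of set 1 with detected markers. Thinned to 6000 UMIs it was 29.95% and 98.8% in luminal-like and 37.0% and 90.2% in basal-like cells, and at 2 or more UMIs 19.2%, 97.0%, 23.3% and 60.7%. Co-detection of hARtg in cells with mGFP was 51.8%, 83.5%, 58.6% and 42.6% at 2 or more UMIs, 96.4% and 75% in luminal-like and basal-like cells of set 2 at 6000 UMIs, and 97.3% and 70.8% there without thinning. With limits chosen after seeing the data, the mGFP-low share of hARtg-high luminal-like cells of set 1 was 16.5% at 4 and 29.4% at 16 mGFP UMIs per 10000, and 14.7% (set 1) and 0.79% (set 2) at 4 hARtg UMIs per 10000 and 6 UMIs. The same share in basal-like cells was between 25.5% and 33.8% in set 1 and between 25.9% and 42.9% in set 2 over the alternatives run. Of the 5 features most like a member, 3 for mGFP and 2 for Osr1 were shared at a pseudocount of 1 CPM, and 1 for Osr1 at a minimum of 10 CPM. Of 165 other values above 0, 144 stayed within 1.5 times the main value. The causes were not tested.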

Other observations

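Luminal-like cells that resembled proximal or urethral luminal epithelium were marked about as often as others in set 1 and less in set 2. Among cells with a proximal marker score of at least 0.4, 20.4% (17.7 to 23.4%) of 798 cells were mGFP-high in set 1, against 18.8% (16.6 to 21.0%) of 1263 cells with a score under 0.2. In set 2 it was 89.9% (83.0 to 94.7%) of 119 cells against 96.6% (96.2 to 97.0%) of 7431 cells, with hARtg at 752 against 1533 CPM.

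Cells that no class claimed held much of both transcripts. The 323 ungated cells of set 1 stood at 295 CPM (279 to 311) of hARtg and 2431 CPM (2386 to 2476) of mGFP, above every class of that set, and the 200 of set 2 at 555 and 4639.7 CPM. Krt5 stood at 659 and 297 CPM and Krt8 at 3203 and 2578 CPM in these summed profiles, and whether both occurred in the same cells was not tested. Called doublets had been left out beforehand, and the part of mixed droplets among the ungated cells was not tested.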
